A study of Mus musculus with 13 samples.

Results

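At 1601 regions on chromosomes 1 to 19, the antibody to HA-tagged Myf6 gave a peak in both libraries of fibroblasts that made Myf6. Neither library of fibroblasts that made Myf6 in the presence of 3 compounds had a peak there. Intervals of 12 peak lists (HA and IgG) that shared at least 1 bp were merged into 70492 regions, and the 1601 were those with a peak in both +Myf6 HA lists, in neither +Myf6+F/R/C HA list, in neither HA list of cells without doxycycline and in none of the 6 IgG lists. They made up 2.27% of all merged regions and 12.9% of the 12438 +Myf6 sites, which are the regions with a peak in both +Myf6 HA lists and no control peak. The presence of these peaks chose the regions, so their peak heights in the same lists are given as a description and carry no test.

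Myf6, also known as MRF4, belongs with MyoD, Myf5 and myogenin to the basic helix-loop-helix factors that drive skeletal muscle differentiation. These factors pair with E proteins and bind short DNA motifs called E-boxes, and forced expression of MyoD-family members can turn fibroblasts towards muscle. H3K27me3, the histone mark that was also profiled, is laid down by Polycomb repressive complex PRC2 at silenced developmental genes. Of the compounds, Forskolin raises cAMP through adenylyl cyclase. RepSox inhibits TGF-β signalling at the receptor ALK5. The GSK3 inhibitor CHIR99021 stabilises β-catenin and so turns on Wnt targets.

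Binding was read out by CUT&RUN, in which a nuclease directed by an antibody releases DNA fragments around the bound places. The cells were mouse embryonic fibroblasts of a strain carrying Pax7-CreERT2, Rosa26-LSL-tdTomato and CAG-rtTA3, transduced with a lentivirus in which a doxycycline-dependent promoter drives mouse Myf6 with HA tags. All groups carried this virus and spent 24 h in iMPC medium. One group had no doxycycline, and the +Myf6 group had it at 2 µg/mL. The group called +Myf6+F/R/C had the same doxycycline together with CHIR99021 at 3 µM and Forskolin and RepSox at 5 µM each. There was no group with the compounds and without doxycycline, so an effect of the compounds on the cells and one on Myf6 binding cannot be told apart. For every treatment there were 2 libraries with the HA antibody and 2 with IgG, and a single H3K27me3 library came from +Myf6+F/R/C cells. Library names begin alike for replicate 1 of +Myf6 and of +Myf6+F/R/C, and alike for their replicates 2 and the H3K27me3 library, and what this prefix stands for is not stated. The labels do not say whether replicates were separate cultures or transductions, and peak lists hold no expression by which the fibroblast label could be checked. Depth was recovered from the lists as the mean number of fragments per 10 kb. For HA it came to 42.4 and 30.6 with Myf6 alone and to 61.9 and 40.9 with Myf6 and compounds. The H3K27me3 library had 54.3, and the 8 control libraries had between 8.25 and 30.6. The IgG libraries of +Myf6 cells had 13.6 and 14.7. Whether background of the height of weak HA peaks could have been called at the depth of the control libraries was not tested. The genes and DNA letters at the regions were not analysed here. Positions are in build GRCm39.

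Regions were ordered by the mean rank of −log10 q in the 2 +Myf6 lists. Over the 1601 regions this value correlated weakly between the lists (Spearman 0.124). At +Myf6 sites with a peak in both compound lists the correlation was 0.334. The leading region by mean rank lay on chromosome 2 at 115405478 to 115405947. Its summit was covered by 21 fragments in +Myf6 replicate 1 and 16 in replicate 2, where 0.982 and 0.628 were expected from the surrounding 10 kb or the library mean, and the authors' fold enrichments there were 11.1 and 10.4. Among all +Myf6 sites it had rank 82, and every site above it had a peak in at least 1 compound library. The nearest HA peak of compound-treated cells was 17089 bp away. The next region, on chromosome 7 at 130242577 to 130243069, had the highest pileup in replicate 1 of all 1601 regions, 30 fragments, and 25 in replicate 2. Its surroundings were also the richest among the leading 10 in replicate 2, with 2.79 and 2.46 fragments expected, so that its folds were 8.19 and 7.51. The third, on chromosome 8 at 116256364 to 116256765, had pileups of 16 and 15 and folds of 8.24 and 9.37, and its 2 summits were 9 bp apart. Both +Myf6 lists reached a −log10 q of 10 or more at 370 sites (2.97% of the +Myf6 sites), and of these the 3 regions above were the ones without a compound peak.

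The other leading regions differed in how even they were between replicates. The region on chromosome 16 (4931279 to 4931731) had pileups of 17 and 11 fragments with summits 2 bp apart, and that on chromosome 7 at 49251209 to 49251617 had 19 and 10. Of the 10, the latter lay farthest from any compound HA peak, at 78489 bp. On chromosome 9 (116071081 to 116071695) both pileups were 15. On chromosome 17 (25980614 to 25980865) they were 25 and 15, over an expected 2.87 and 1.45. Replicate 2 was the higher one on chromosome 7 at 138853287 to 138853537, with 14 and 17 fragments, and on chromosome 14 at 76224394 to 76224657, with 13 and 15. The remaining region, on chromosome 15 (79298669 to 79299098), had 20 and 12. Replicate 1 was thus the higher in 7 of the 10 regions, and the 2 libraries were equal in 1, while replicate 1 was also the deeper library (42.4 against 30.6 fragments per 10 kb). Of the 10 regions, the one on chromosome 8 met an H3K27me3 peak. The others lay 4175 to 31802 bp from the mark.

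**Figure D1:**
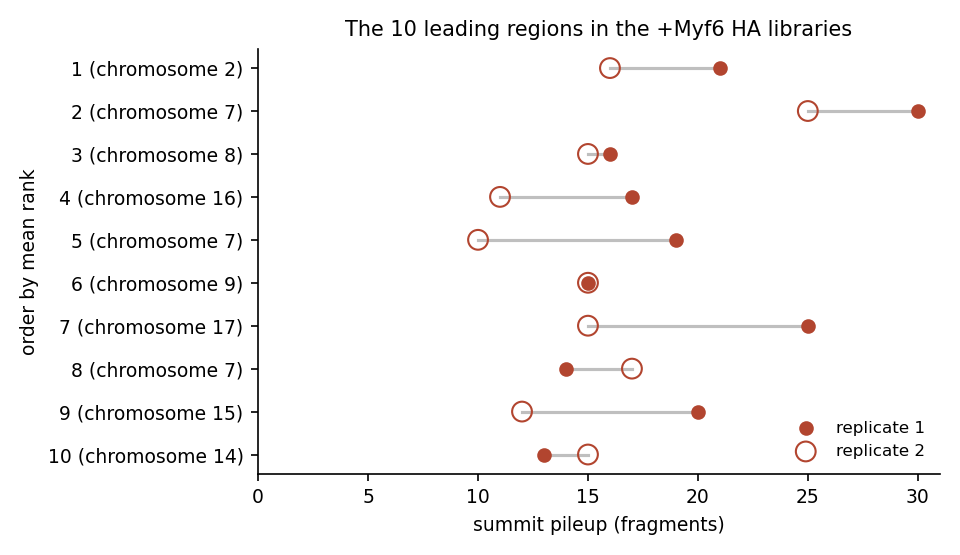
Summit pileup in fragments (x axis) of the 10 leading regions (y axis, in order of mean rank, named by chromosome) in +Myf6 HA replicate 1 (filled points) and replicate 2 (open circles). The region on chromosome 7 that is second in order has 30 and 25 fragments, and the region on chromosome 9 has 15 in both libraries.

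Most of the 1601 regions were weak. The median summit pileup was 9 fragments in replicate 1 (middle 50% of regions, 8 to 11) and 8 in replicate 2 (7 to 10), and the median folds were 4.88 and 4.96. Pileups ran from 5 to 30 in replicate 1 and from 4 to 26 in replicate 2. At the library mean, the lowest pileup that could be called was 5 in replicate 1 and 4 in replicate 2, so the lowest pileups of the regions sat at the limit of the lists. In both lists, −log10 q was at least 5 at 152 regions, at least 7 at 24 and at least 10 at the 3 named above. The median region was 377 bp wide, from 161 to 927 bp, where 161 bp is also the width of the narrowest peak in either list. Replicates placed their summits a median of 85 bp apart, within 50 bp of each other at 532 regions and within 100 bp at 910 (56.8%). At +Myf6 sites with a peak in both compound lists the summits were 82 bp apart at the median, with 55.7% within 100 bp. Within 50 bp were 37.3% of those sites and 33.2% of the 1601 regions. Median peak widths in replicates 1 and 2 were 400 and 381 bp at those sites, against 261 and 260 bp. The rule asks for both peaks in 1 merged region, so peak width limits how far apart summits can lie. These distances therefore do not compare the precision of the classes.

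Pileups in the +Myf6 libraries were ordered by how many of the 2 compound lists had a peak. Of the 12438 +Myf6 sites, 7608 had a peak in both compound lists and 3229 in 1 of them. Median pileups in replicates 1 and 2 were 13 and 11 at the former and 10 and 9 at the latter, against 9 and 8 at the 1601 regions with none. The expected pileup followed the same order, with medians of 1.40 and 1.06, then 1.13 and 0.837, and 0.998 and 0.757 at the 1601 regions. The ranges overlapped widely, since 1 in 10 of the 1601 regions reached 14 or more fragments in replicate 1, above the median of the sites with peaks in both compound lists. Of the 3229 sites with 1 compound peak, 2270 had it in replicate 1 alone and 959 in replicate 2 alone, and replicate 1 was the deeper of the compound libraries.

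**Figure D2:**
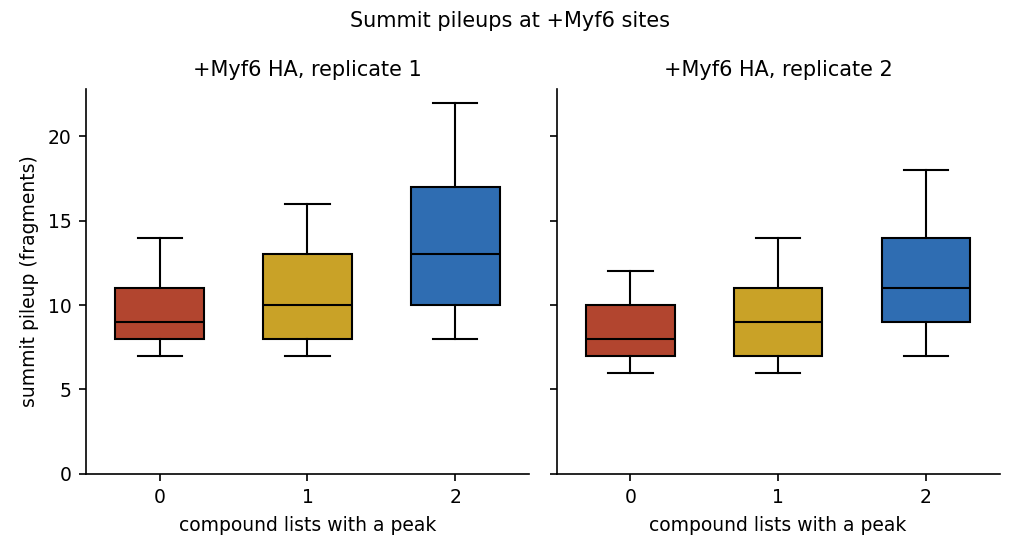
Summit pileup in fragments (y axis) at +Myf6 sites in +Myf6 HA replicate 1 (left) and replicate 2 (right), by the number of compound lists with a peak (x axis). Boxes span the middle 50% of sites with the median as a line and whiskers the 10th to 90th percentile; sites without a compound peak have medians of 9 and 8 fragments.

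The share of +Myf6 sites without any compound peak was smaller in bands of higher strength. Where the weaker of the 2 +Myf6 peaks had −log10 q between 1.3 and 2, 146 of 483 sites (30.2%, interval 26.2 to 34.5%) had no compound peak. The share was 21.5% between 2 and 3, 13.8% between 3 and 5 and 4.15% between 5 and 10. At 10 and above it was 0.811% (3 of 370, interval 0.168 to 2.35%). Ranked by mean rank, the strongest 1244 of the +Myf6 sites held 11 of the 1601 regions and the weakest 1243 held 372. Intervals here and below are exact Clopper-Pearson intervals of 95% and cover counting error only.

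**Figure D3:**
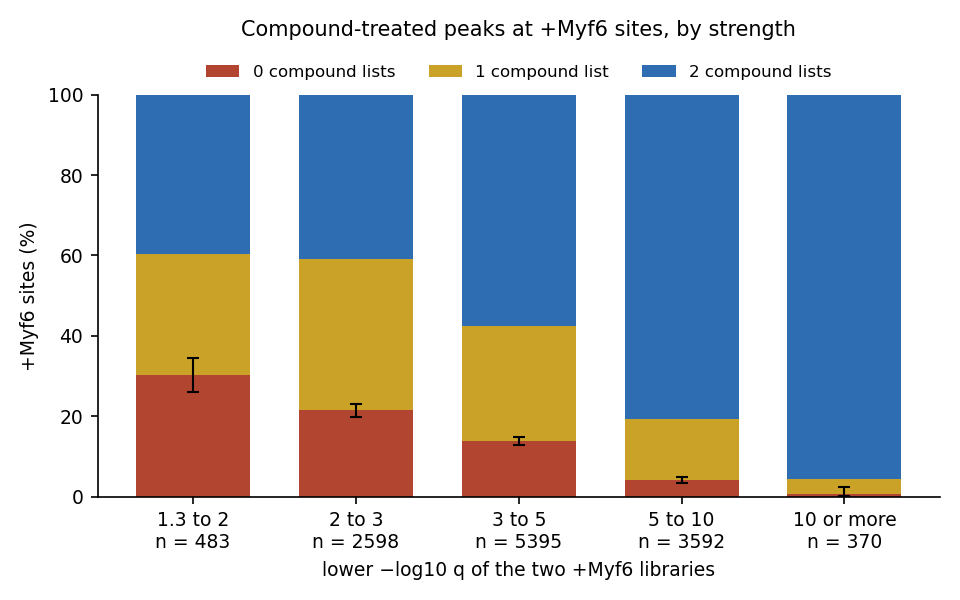
Percentage of +Myf6 sites (y axis) with a peak in 0, 1 or 2 compound lists, in bands of the lower −log10 q of the 2 +Myf6 libraries (x axis, with the number of sites). Bars are stacked to 100%, and error bars are exact 95% intervals of the share without a compound peak, which is 30.2% in the weakest band and 0.811% in the strongest.

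The 2 +Myf6 replicates shared a smaller part of the peaks that compound-treated cells lacked than of the peaks also found in compound lists. Of 6753 control-free regions with a peak in +Myf6 replicate 1 and in no compound list, 1601 (23.7%, interval 22.7 to 24.7%) had one in replicate 2. From replicate 2 the share was 12.8% of 12549 regions (interval 12.2 to 13.4%). Of regions of replicate 1 with a peak in 1 compound list, 45.6% were found in replicate 2, and 42.4% in the opposite direction. With peaks in both compound lists the shares were 76.8 and 77.6%. These classes also differed in peak strength. Peaks of the strength of the 1601 regions were often not shared between the +Myf6 libraries either, and why was not tested. The middle 50% of the regions had −log10 q of 3.01 to 5.18 in replicate 1. Of all 10272 control-free regions of that library in this range, 44.6% had a peak in +Myf6 replicate 2, 57.0% in +Myf6+F/R/C replicate 1 and 41.2% in +Myf6+F/R/C replicate 2. For the 13776 regions of +Myf6 replicate 2 in its own range, 2.96 to 5.08, the shares were 35.5% in +Myf6 replicate 1 and 40.9 and 38.1% in the compound libraries. At this strength the other +Myf6 library therefore held a share between those of the compound libraries in the first case and a share below both in the second. The deepest of the 4 libraries was +Myf6+F/R/C replicate 1 and the shallowest +Myf6 replicate 2. These shares were not tested between treatments. An exact two-sided permutation test of 2 libraries against 2 cannot give a p under 0.333.

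To set the +Myf6 pileups beside what the compound libraries could call, each pileup was multiplied by the ratio of the library means. This ratio was 1.49 from +Myf6 replicate 1 to compound replicate 1 and 1.03 to compound replicate 2. From +Myf6 replicate 2 it was 2.06 and 1.43. Each of these reactions had 500000 cells and 5000 spike-in nuclei, but the scaling did not use the spike-in. With the expected pileup scaled alike, all 1601 regions passed the lowest −log10 p of both compound lists (100%). This separates nothing, because called pileups were multiplied by ratios above 1. All 3229 sites with 1 compound peak passed in both compound libraries too, although each of them was not called in one. Whether depth has a part in the missing compound peaks was not tested. From replicate 1 the scaled pileup had a median of 13.4 fragments in compound replicate 1, where the largest pileup that would not be called had a median of 6. In compound replicate 2 these medians were 9.27 and 5. The largest uncalled pileup came to 47.1 and 53.9% of the scaled one at the median region, from 19.2 to 78.5% in compound replicate 1 and from 23.1 to 88.2% in replicate 2. From +Myf6 replicate 2 the medians were 40.4 and 46.6%. The lists record no value below their threshold, so the pileup left in compound-treated cells is not known. The +Myf6 pileups were chosen for having been called, which tends to set them high and these percentages low. The percentages are therefore no safe upper limits on the signal left.

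**Figure D4:**
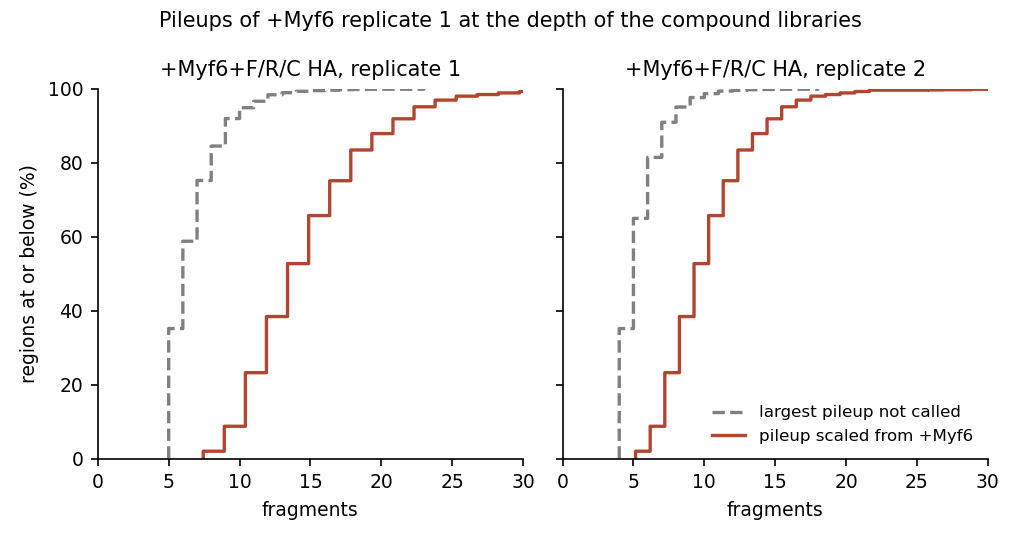
Cumulative percentage of the 1601 regions (y axis) by fragments (x axis, cut at 30) for the summit pileup of +Myf6 replicate 1 scaled to the depth of each compound HA library (solid) and the largest pileup that library would not have called there (dashed). The medians are 13.4 and 6 fragments in replicate 1 and 9.27 and 5 in replicate 2.

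At the inner border of the rule were the regions with the lowest −log10 q in either +Myf6 list. The first of them, on chromosome 4 (56387370 to 56387591), had −log10 q of 1.3 in replicate 1 and 2.89 in replicate 2 on 5 and 7 fragments, and a compound peak began 12 bp beyond its edge. The next was on chromosome 10 (41690436 to 41690781) with 1.31 and 3.80, on 8 and 12 fragments. The third was on chromosome 12 (26455193 to 26455632) with 2.39 and 1.33. Just outside were the sites whose 1 compound peak had the lowest −log10 q. Of these, a region on chromosome 4 (95554528 to 95555059) had 9 and 8 fragments in the +Myf6 libraries and was left out for a peak of 6 fragments and −log10 q of 1.34 in compound replicate 2. A region on chromosome 12 (32042261 to 32042866) was left out for a peak of the same values, and one on chromosome 11 (20828569 to 20829093) for 6 fragments and a −log10 q of 1.36 in compound replicate 1. Of the 3229 sites with 1 compound peak, that peak had −log10 q under 2 at 63 and under 3 at 441.

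Distances to the HA peaks of compound-treated cells are given as a description, and what other positions would give was not computed. The nearest one lay within 500 bp of 185 regions (11.6%), within 1 kb of 264 and within 10 kb of 894 (55.8%), with a median distance of 8239 bp. In the opposite direction, 2763 regions had a peak in both compound HA lists, in neither +Myf6 HA list and in no control list. Of these 2763, a +Myf6 HA peak lay within 500 bp of 281 (10.2%), and the median distance was 9365 bp. A region on chromosome 8 (93595954 to 93596328) adjoined a compound peak without a base between them, and others on chromosome 11 (86271854 to 86272144) and chromosome 8 (26841949 to 26842134) were 2 and 3 bp from one. Where peaks up to 500 bp apart were merged, 1401 of the 1601 regions still met the rule. Control peaks were farther away, at a median of 74935 bp and within 1 kb of 30 regions. The control lists were also much shorter, with 410 to 4138 peaks each on these chromosomes against 37811 and 31504 in the compound HA lists. The nearest +Myf6 site with a compound peak was a median of 42080 bp away, and within 10 kb of 258 regions (16.1%).

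Few of the regions were close neighbours. Successive ones on a chromosome were a median of 757723 bp apart, and 21 of 1582 neighbouring pairs were within 10 kb. The closest pair lay on chromosome 11, at 31513733 to 31514424 and 31514591 to 31515061, with 166 bp between them. Of 1969 megabases that held a +Myf6 site, 1029 held any of the regions. Of these, 636 held 1 region, 264 held 2, 94 held 3, 25 held 4 and 10 held 5 or more. What random placement would give was not computed. The fullest, from 134 to 135 Mb of chromosome 4, held 7 among 22 +Myf6 sites. By chromosome, between 10.3% of the +Myf6 sites (chromosome 7, 71 of 692, interval 8.10 to 12.8%) and 16.4% (chromosome 8, 107 of 653, interval 13.6 to 19.5%) had no compound peak. These extremes were picked from 19 chromosomes, and the difference was not tested.

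H3K27me3 was met at about the same share of these regions as of all regions with an induced HA peak. The mark had a peak at 407 of the 1601 regions (25.4%, interval 23.3 to 27.6%), beside 25.0% of the 62981 regions with a peak in any of the 4 induced HA lists and no control peak. The rule did not use the H3K27me3 library, but it is 1 library of compound-treated cells, so the mark in cells with Myf6 alone is not known. When the regions were moved by 1 kb to either side the share was 8.99 and 8.43%, and by 5 kb 2.31 and 2.25%. The 62981 induced regions fell alike, to 8.49 and 8.39% by 1 kb and to 2.10 and 2.10% by 5 kb. The fall is thus not particular to the 1601 regions. Without a move, the share among +Myf6 sites with 1 compound peak was 29.1% (interval 27.5 to 30.7%). With 2 compound peaks it was 34.7% (33.7 to 35.8%). Those sites were also wider, with medians of 499 and 656 bp against 377 bp. At the summit base of +Myf6 replicate 1 alone, where width plays no part, the shares were 21.4, 22.9 and 24.6% for 0, 1 and 2 compound lists, and at that of replicate 2 they were 20.9, 22.7 and 24.8%. At replicate 1 the interval was 19.4 to 23.5% for 0 compound lists and 23.6 to 25.5% for 2. These shares were not tested between classes, which also differed in peak strength. The share at the summit base over all induced regions was not computed.

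Over whole regions, the narrow H3K27me3 peaks followed the order by compound peaks. Regions with compound peaks were also wider, and the split by width of the mark was not made at the summit base. Taking the highest H3K27me3 peak met by each region, its median width was 1031 bp and its median pileup 44 fragments at the 407 regions, against 843 bp and 33 at sites with 1 compound peak and 521 bp and 13 at sites with 2. Over all induced regions these medians were 833 bp and 30. Peaks of the mark narrower than 1 kb were met at 12.3% of the 1601 regions (197, interval 10.7 to 14.0%), beside 13.9% of all induced regions, and at 16.1 and 24.1% of the sites with 1 and 2 compound peaks. Peaks of 1 kb or wider were met at 13.1% (210, interval 11.5 to 14.9%), beside 11.1% of all induced regions, and at 13.0 and 10.7%. The boundary of 1 kb was chosen after the values were seen. Within the band of −log10 q from 3 to 5, the narrow peaks were met at 13.0, 16.4 and 24.0% of sites with 0, 1 and 2 compound peaks and the wide ones at 12.9, 12.8 and 11.8%, and from 5 to 10 the narrow ones at 11.4, 15.9 and 24.7%. The H3K27me3 library shares its name prefix with replicate 2 of both treatments. Of the sites whose only compound peak was in replicate 2, 36.0% (interval 32.9 to 39.1%) met the mark, against 26.2% (24.4 to 28.1%) where it was in replicate 1. What part the source of the nuclei has in these shares was not tested.

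**Figure D5:**
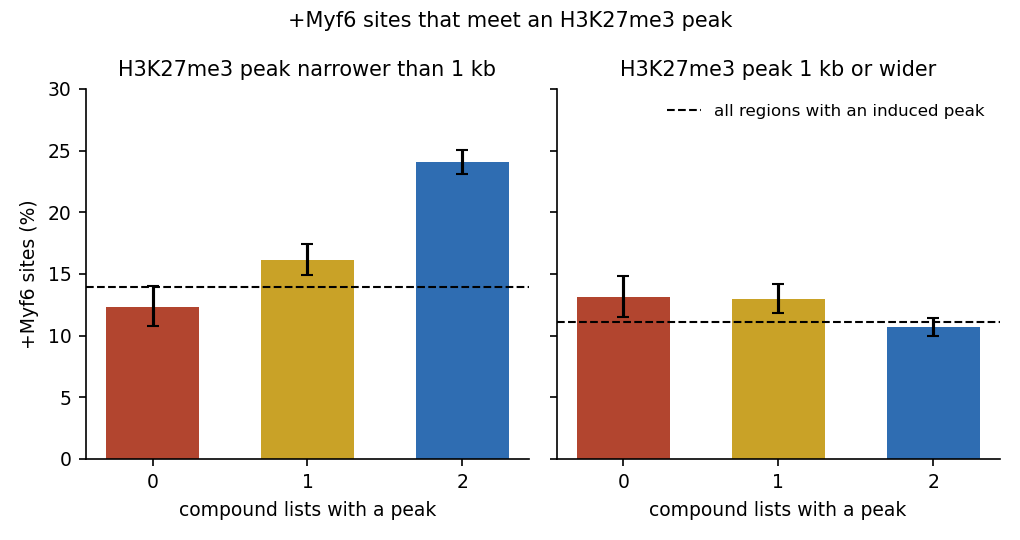
Percentage of +Myf6 sites (y axis) that meet an H3K27me3 peak narrower than 1 kb (left) or of 1 kb or wider (right), by the number of compound lists with a peak (x axis), with exact 95% intervals. The dashed line is the share over all regions with an induced HA peak and no control peak; sites without a compound peak are at 12.3% on the left and 13.1% on the right.

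Regions with and without the mark were alike in height. The 407 with an H3K27me3 peak had median pileups of 9 and 8 fragments, as had the 1194 without, and median folds of 4.84 and 5.06 against 4.89 and 4.94. Their widths were 381 and 377 bp at the median. The nearest summit of the mark was a median of 216 bp from the midpoint of the +Myf6 summits and within 100 bp at 117 of the 407 (28.7%), beside 32.7% of the marked sites with 2 compound peaks. The strongest marked region was that on chromosome 8 described above. It was followed by one on chromosome 14 (74969176 to 74969650), with 14 and 17 fragments, and one on chromosome 11 (20581582 to 20581977), with 19 and 15 fragments and summits 1 bp apart, which had a compound HA peak 334 bp away.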

How the data were processed

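CUT&RUN was deposited as 1 narrow-peak list for each library. The submitters' processing notes name MACS2, deepTools and DiffBind and the build GRCm39. For the aligner and tool versions, the sources used here give nothing. The deposited values were a fold enrichment (ratio to local background), −log10 p and −log10 q, a score (10 times −log10 q, cut to a whole number) and the summit position.

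From these, the whole number of fragments at the summit, k, and the expected number, λ, were solved so that the fold was (k + 1)/(λ + 1) and p the Poisson chance of more than k fragments. In each list 99.9% of peaks or more matched −log10 p within 0.002. The lowest λ over the narrowest peak's width gave the depth. Where a list had several peaks in a region, the one with the highest −log10 q was used. The steps were tested on simulated lists.

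The regions and all choices were made with earlier results of these data known. Named regions were the 10 members with the best mean within-list rank, the 3 with the lowest −log10 q in either +Myf6 list, the 3 just outside the rule, and the closest and marked ones; chromosome 18 was left out of them. Genes, gene lists and E-box motifs planned at the start were not analysed here, since the annotation at hand was of build GRCm38. No test was made: every comparison involves the lists that chose the regions, or 1 library. Python 3.11.15, numpy 2.4.6, pandas 2.3.3 and scipy 1.17.1 were used.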

Additional observations from a re-analysis of the deposited data

How the results depend on the processing

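The number of regions stayed between 1518 and 1849 under 6 of 12 alternatives. It was 897 with −log10 q of at least 3 in the +Myf6 lists and 910 with +Myf6 summits within 100 bp. With any 1 of the 4 induced HA libraries left out it was 2560 to 12549, namely 12549 and 6753 when +Myf6 replicate 1 or 2 was dropped, and 3871 and 2560 when replicate 1 or 2 of +Myf6+F/R/C was dropped. With the induced lists at equal length, 1293 of the 1601 regions were kept among 1849. The share with H3K27me3 was 20.7% with its peaks at −log10 q of at least 5, 23.2% at a +Myf6 summit, 20.2 to 29.4% with 1 library left out, and 24.7 to 27.5% under the other 8 alternatives. The share that could be called in both compound libraries was 100% from either replicate and 96.4% with the expected pileup at 1.5 times the library mean or more. As said above, this share separates nothing, because called pileups were multiplied by ratios above 1. Stricter thresholds keep fewer peaks, and leaving out a library removes 1 of the rule's conditions; the cause of other changes was not tested. No paired analysis was possible because a list holds no value where it has no peak, and the rule itself asks for the difference in both replicate numbers. The alternatives for E-box letters and transcription starts were not run. A peak list has no value below its threshold, so a region without a compound peak is one not called at this depth, not one shown to be unbound.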

Other observations

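On the X chromosome, 12 regions met the same rule, and on the Y chromosome 0. On chromosomes 1 to 19, a further 68 regions had a peak in both +Myf6 HA lists and no compound peak but were set aside for a control peak: 42 had one in an HA list without doxycycline and 39 in an IgG list, some in both.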
